A study of Mus musculus with 34 samples.

Results

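The 10 apolipoprotein genes Apoa1, Apoa2, Apoa4, Apoa5, Apob, Apoc1, Apoc3, Apoe, Apoh and Apom were followed through 34 mouse RNA-seq libraries. They were taken by symbol from a table of 51368 genes, without use of their measured values, and all 10 passed the filter on low counts in every fit. Apolipoproteins are the protein part of lipoproteins, the particles that carry cholesterol and triglyceride in blood. Hepatocytes make most of them, and several of their messenger RNAs are among the most abundant of the liver. Apob is the large scaffold of very low density lipoproteins and chylomicrons. The others are smaller proteins, most of which move between particles and act as lipase regulators, receptor ligands or scaffolds of high density lipoprotein.

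The libraries came from a liver and a heart of 1 wild-type C57BL/6J mouse, 12 weeks old. Its sex is uncertain, since the sample characteristics say female and the growth protocol says male. From the liver RNA, 9 libraries were made by polyA selection, 9 by rRNA pull-down and 9 by rRNA digestion, each set covering slow, medium and fast PCR ramps by short, medium and long fragments. Another 6 liver libraries were unselected, meaning that ribosomal RNA was left in (3 in batch 1 and 3 in batch 2), and 1 heart library was unselected, in batch 1. The question was how selection, ramp rate and fragment length move the measured levels.

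PolyA selection captures RNA by its tail, the pull-down removes rRNA with hybridised probes, and the digestion degrades probe-bound rRNA. The kits were TruSeq Stranded mRNA for polyA, TruSeq Stranded Total RNA for pull-down and unselected libraries, and a ligation kit with Ribo-Zero Plus for digestion. Selected libraries used 200 ng of RNA, and unselected ones 20 ng. The unselected libraries had the slow ramp and fragments of medium length, and all libraries had 13 PCR cycles. All liver libraries are preparations of 1 RNA sample, so every p-value measures the spread between preparations and none the spread between animals. Each selected library was the only 1 of its method, ramp and fragment length. In the fit of all liver libraries, 1 set of ramp and length effects was shared by all methods. Departures from these shared effects count in that spread. PolyA libraries were all in batch 1 and pull-down and digestion libraries all in batch 2, so polyA against either of them cannot be told apart from batch. Each method was therefore also set against the unselected libraries of its own batch, and there method and input amount cannot be told apart, nor, for polyA and digestion, the kit.

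Totals were 19.9 to 21.7 M counts in unselected liver libraries, 23.5 to 41.4 M in polyA and 20.0 to 30.2 M in digestion libraries. In the pull-down set 1 library, with slow ramp and long fragments, held 1.13 M counts and stood apart for several of the genes, so results that rest on it are given with and without it. The rRNA genes and Lars2, a gene known to draw rRNA reads, held 85.0% to 85.6% of the counts on average in the 2 sets of unselected liver libraries. They held 0.302% ± 0.0594 (SD, n = 9) in polyA, 19.1% ± 3.82 (SD, n = 9) in pull-down and 0.544% ± 0.236 (SD, n = 9) in digestion libraries. Of the remaining counts, the 10 genes held 3.80% in unselected liver libraries of either batch, 4.12% ± 0.155 (SD, n = 9) in polyA, 4.11% ± 0.351 (SD, n = 9) in pull-down and 3.40% ± 0.112 (SD, n = 9) in digestion libraries. Levels are counts per 1 M (CPM) of the library total after that total was scaled by its TMM factor, called normalised CPM. All 6 hepatocyte markers were abundant in every liver library, Alb from 30790 to 51150 normalised CPM.

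The genes differ in size and in other properties, such as G and C content. By the annotated transcript with the longest coding sequence (GENCODE M21, GRCm38), they run from Apoa2 at 518 bases and Apoc1 at 532 through Apoc3 (709), Apom (1013), Apoa1 (1035), Apoh (1190), Apoe (1408), Apoa4 (1815) and Apoa5 (2515) to Apob at 13934 bases in 29 exons. Apoa1, Apoc3, Apoa4 and Apoa5 lie in 1 cluster on chromosome 9, from the start of Apoa1 at chr9:46228580 to the end of Apoa5 at chr9:46271919, with Apoc3 alone on the minus strand. Apoc1 (chr7:19689481-19692660) and Apoe (chr7:19696109-19699188) are neighbours on the minus strand of chromosome 7. Apob lies at chr12:7977648-8016835 and Apoa2 at chr1:171225054-171226379, both on the plus strand. Apoh lies at chr11:108343354-108414396 (plus) and Apom at chr17:35128997-35132050 (minus). Annotated antisense genes overlap Apoa4 (Gm10680) and Apoa5 (Gm47544), but they held at most 4 and 15 counts in any library. The minus-strand gene Prkca overlaps Apoh and held at most 589 counts. The G and C content was lowest in Apob, at 43.5%. Among the other members it ran from 48.5% in Apoh to 59.5% in Apoe.

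How short the short members are is shown by the whole coding sequence of Apoc1, 264 bases plus a stop codon, read 5′ to 3′ from the GENCODE transcript on the minus strand of GRCm38, with the start and stop codons in capitals. The coding part of Apob is 13515 bases, 51.2 times as long.
Apoc1: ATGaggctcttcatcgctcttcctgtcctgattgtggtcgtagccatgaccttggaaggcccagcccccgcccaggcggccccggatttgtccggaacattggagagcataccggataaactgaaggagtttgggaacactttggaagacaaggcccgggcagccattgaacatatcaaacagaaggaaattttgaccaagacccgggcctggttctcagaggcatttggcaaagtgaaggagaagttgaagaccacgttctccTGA

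The plot of levels by library shows each gene in every liver preparation, and Apob moves apart from the other 9 genes in it.

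**Figure D1:**
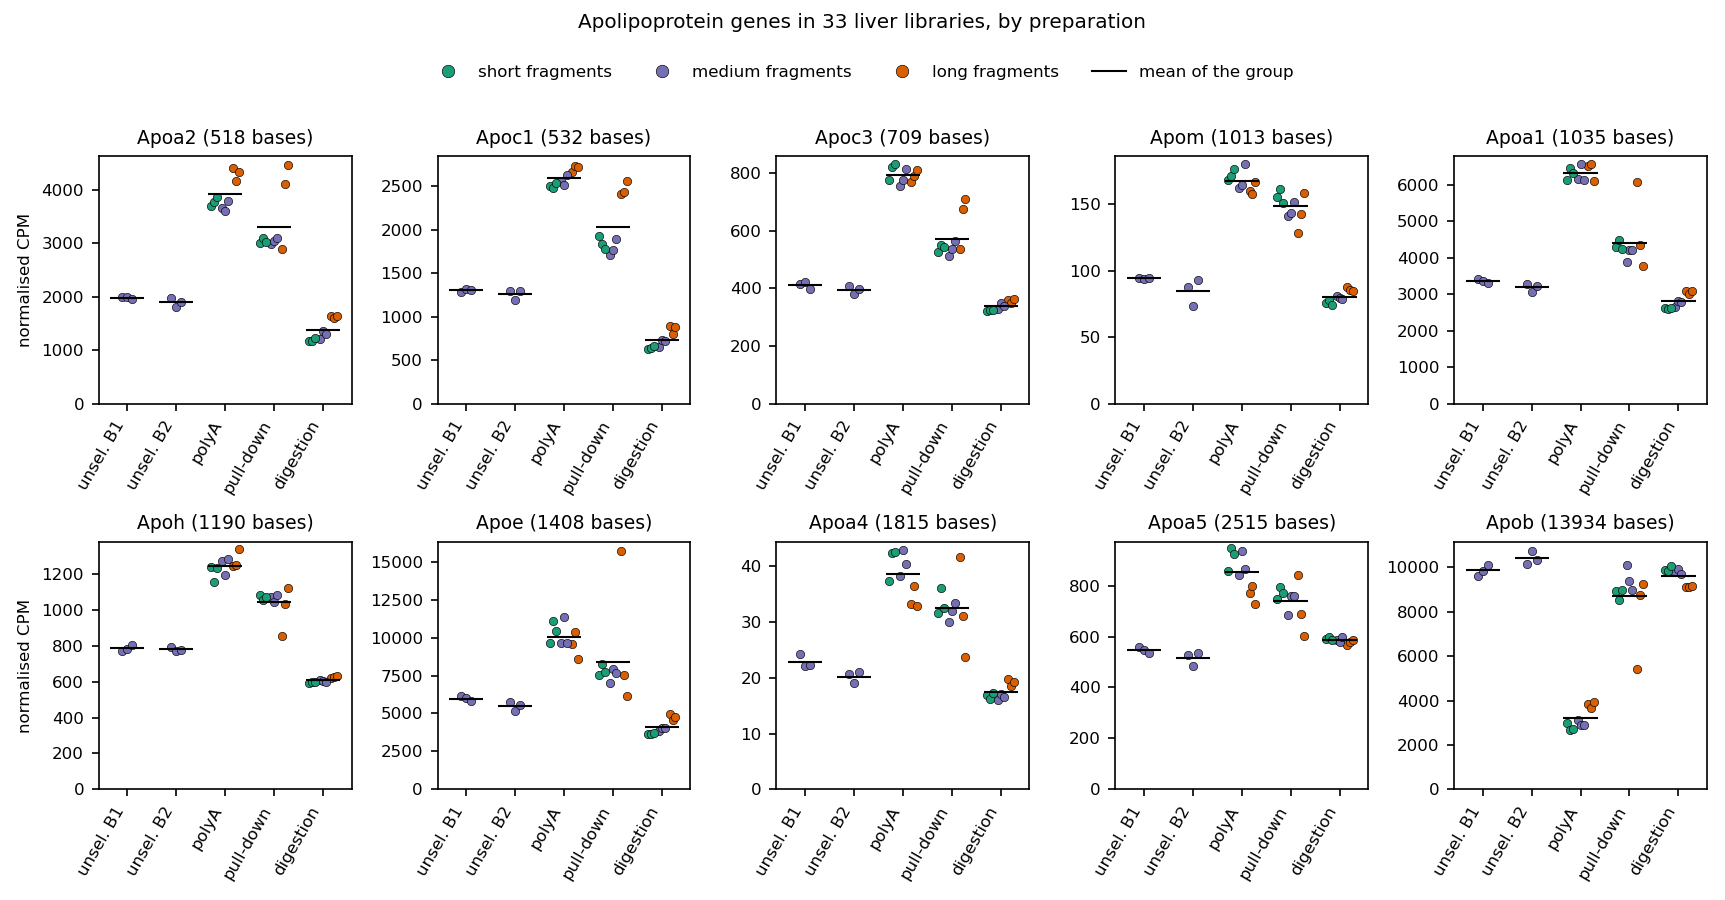
Normalised CPM (vertical axes, from 0, 1 scale per gene) of each apolipoprotein gene in the 33 liver libraries, ordered by transcript length, with 1 point per library coloured by fragment length and a bar at each group's mean. Apob lay between 2685 and 3931 in polyA libraries and at 8549 or more in every other library except the low-depth pull-down library, at 5413.

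After polyA selection the scaffold gene Apob was lower and the other 9 apolipoprotein genes higher than in unselected libraries of the same batch. Apob, the protein on which very low density lipoproteins are built, stood at 9616, 9845 and 10120 normalised CPM in the unselected libraries. In the 9 polyA libraries it ranged from 2685 through a median of 2988 to 3931, so the groups did not overlap. The log2 fold change was -1.62 (SE 0.135; adjusted p = 1.87e-11 by edgeR's quasi-likelihood test), or 3.08-fold lower.

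Among the genes of high density lipoprotein, Apoa1, its main structural protein, was at 3412, 3361 and 3325 normalised CPM unselected and from 6117 through 6320 to 6583 in polyA libraries. Its log2 fold change was 0.90 (SE 0.092; adjusted p = 1.71e-09 by edgeR). Apoa2, the second structural protein, rose by 0.84 (SE 0.082), from 1959 to 2001 unselected to 3603 to 4413. Apom, a lipocalin that carries sphingosine-1-phosphate, rose by 0.80 (SE 0.073), from 93.9 to 94.5 unselected to 157 to 180. In each of these genes every polyA library lay above every unselected one.

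The exchangeable regulators and ligands moved alike. Apoc1, a small inhibitor of lipoprotein remodelling enzymes, went from 1280, 1322 and 1311 normalised CPM to between 2475 and 2737, a log2 fold change of 0.90 (SE 0.074). Apoc3, an inhibitor of lipoprotein lipase, rose by 0.85 (SE 0.065), and Apoa5, which promotes the same lipase, by 0.64 (SE 0.074). Apoe, the ligand of the LDL receptor family, rose by 0.77 (SE 0.178), from 5805 to 6140 unselected to 8579 to 11390. Apoa4, which the small intestine makes in quantity, rose by 0.73 (SE 0.130) at low levels, from 22.02 to 24.31 unselected to 32.9 to 43.0. Apoh, the phospholipid-binding beta-2-glycoprotein I, rose by 0.66 (SE 0.058).

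In all, 9 of 10 genes were called higher, against 25.6% of the 15422 genes tested, and 1 was called lower, against 24.8%. Their median log2 fold change was 0.78, and that of all genes tested was 0.04. The summed hepatocyte markers were higher too, at 61210 to 68270 normalised CPM against 49070 to 49810, as were the erythroid (303.2 to 418.0 against 247.1 to 259.2) and enterocyte sums (41.59 to 76.82 against 25.75 to 28.47). The sums of 4 other cell types were lower. Kupffer cell or macrophage markers were at 101.8 to 111.1 against 119.0 to 131.3, sinusoidal endothelium at 54.27 to 59.45 against 119.5 to 131.0, stellate cell at 73.57 to 89.48 against 151.0 to 156.7, and cholangiocyte at 4.231 to 5.81 against 7.563 to 9.064. Over all liver libraries the enterocyte marker Fabp2 was at 18.14 to 76.56, and Vil1, Lct and Alpi reached at most 0.817. Of the cholangiocyte markers Sox9 reached 9.505, and Krt19, Epcam and Krt7 at most 1.236. These 2 sums, here and below, thus rest largely on 1 gene each. All of these libraries are preparations of 1 RNA sample, so the sums compare marker transcripts between preparations, not numbers of cells. Their relation to the members' change was not tested. Every one of the 10 calls held without the low-depth pull-down library, whose spread enters the shared estimate.

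The direction went with transcript length across all genes, and its relation to G and C content was not tested. Protein-coding genes under 750 bases, the bin of Apoa2, Apoc1 and Apoc3, had a median log2 fold change of 0.69 in polyA libraries (n = 384 genes). The median was 0.58 from 750 to 1500 bases, 0.27 from 1500 to 3000, -0.15 from 3000 to 6000 and -0.74 over 6000 bases (n = 1595 genes). Apob, at -1.62, lay below the lower quartile of its bin, which was -1.19. Apoa4 and Apoa5, at 0.73 and 0.64, lay above the upper quartile of theirs, 0.51. Apoa1 (0.895) and Apom (0.795) also lay above theirs, 0.791, as did Apoc1 (0.897 against 0.89), and the other 4 small members lay between the median and the upper quartile. The plot against transcript length sets the 10 genes on these bins.

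**Figure D2:**
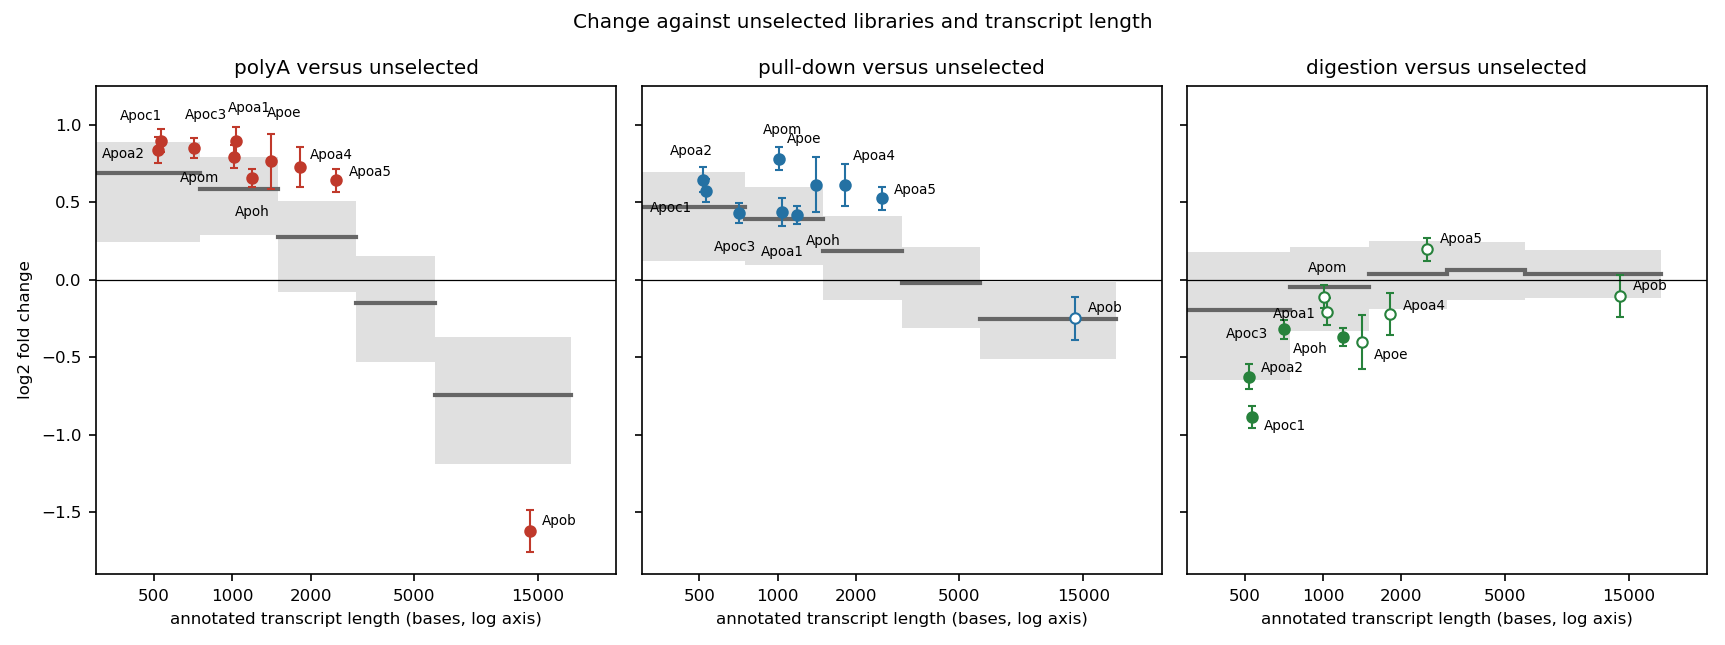
Log2 fold change of each method against unselected libraries of its batch (vertical axis) by annotated transcript length in bases (log axis), with points and SE bars for the 10 genes, filled where the adjusted p was under 0.05. Grey bars give the median and quartiles of all protein-coding genes in 5 length bins; the bin median falls from 0.69 to -0.74 in polyA and from 0.47 to -0.25 in pull-down libraries, and lies between -0.20 and 0.07 in digestion libraries.

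After rRNA pull-down the same 9 genes were higher than in unselected libraries, and Apob was not called. Apob was at 10150, 10740 and 10310 normalised CPM in the unselected libraries of batch 2. In the pull-down libraries it ranged from 5413, the low-depth library, through a median of 8967 to 10100, all below the unselected ones. The log2 fold change was -0.25 (SE 0.137; adjusted p = 0.173 by edgeR), and -0.14 (adjusted p = 0.223) without the low-depth library. With totals over all genes except rRNA genes and Lars2 in place of TMM, Apob was called lower, at -0.42 (adjusted p = 0.00949 by edgeR).

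The highest rise was that of Apom, by 0.78 (SE 0.075), from 73.4, 88.0 and 92.8 normalised CPM unselected to between 128 and 162. The structural genes Apoa2 and Apoa1 rose by 0.65 (SE 0.082) and 0.44 (SE 0.091), and the lipase regulators Apoa5 and Apoc3 by 0.52 (SE 0.074) and 0.43 (SE 0.065). Apoc1 rose by 0.57, Apoa4 by 0.61 and Apoh by 0.42. Apoe rose by 0.61 (SE 0.177; adjusted p = 0.00722 by edgeR) with the low-depth library, where it stood at 15710 normalised CPM against 6171 to 8272 in the other 8, and by 0.41 (adjusted p = 0.00151 by edgeR) without it. That call was lost with totals over all genes except rRNA genes and Lars2 (0.45, adjusted p = 0.0676 by edgeR).

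Thus 9 of 10 genes were called higher in pull-down libraries, against 17.5% of all genes tested, and none lower, against 15.3%. The same counts held without the low-depth library. The median over the 10 genes was 0.55 and over all genes 0.06. Marker sums of other cell types moved in both directions between pull-down libraries and unselected ones of batch 2. The 6 hepatocyte markers summed to a median of 61400 normalised CPM (46940 to 65290) against 48650 to 49300, and the 6 Kupffer cell or macrophage markers to a median of 189.6 (lowest 182.7) against 119.0 to 122.7. The 4 sinusoidal endothelium markers summed to 146.9 to 177.4 against 108.1 to 119.6, and the 4 stellate cell markers to 184.6 to 256.6 against 160.2 to 167.8. The erythroid sum was higher (304.4 to 443.6 against 215.5 to 231.3), the enterocyte sum overlapped (28.59 to 55.81 against 27.65 to 32.51), and the cholangiocyte sum was lower (0.817 to 3.303 against 5.627 to 6.912). Since these libraries share 1 RNA sample, the sums again compare marker transcripts and not numbers of cells. Their relation to the members' change was not tested. By length, the medians of protein-coding genes fell from 0.47 under 750 bases to -0.25 over 6000 bases, the value of Apob itself.

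After rRNA digestion Apob was not called different from its unselected level, and 4 short members were lower. Apob ranged from 9108 through 9802 to 10050 normalised CPM over the 9 digestion libraries, and its log2 fold change was -0.11 (SE 0.138; adjusted p = 0.695 by edgeR). Apoc1 fell from 1300, 1193 and 1301 normalised CPM unselected to between 634 and 898, by 0.89 (SE 0.071; adjusted p = 6.84e-11 by edgeR). Apoa2 fell from 1813 to 1975 unselected to 1180 to 1648, by 0.63 on the log2 scale (SE 0.079). Apoh fell by 0.37 (SE 0.057) and Apoc3 by 0.32 (SE 0.063). In these 4 genes no digestion library reached the unselected ones. The same separation held in 3 genes that were not called: all 9 digestion libraries lay below every unselected one for Apob and Apoe, and above for Apoa5. The share of all genes tested with such a separation was not computed.

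The remaining 5 small members were not called: Apoe -0.40 (SE 0.174), Apoa4 -0.22 (SE 0.137), Apoa1 -0.21 (SE 0.089), Apom -0.11 (SE 0.073) and Apoa5 0.20 (SE 0.073). Without the low-depth pull-down library, Apoe (-0.45, adjusted p = 0.0011) and Apoa1 (-0.23, adjusted p = 0.00331) were called lower and Apoa5 higher (0.18, adjusted p = 0.0171), all by edgeR, where 8.83% of all genes tested were lower and 8.84% higher. Apoa1 was also called lower with DESeq2 (-0.25, adjusted p = 0.0465). Apoa5 was also called higher with totals over all genes except rRNA genes and Lars2 (0.29, adjusted p = 0.0141 by edgeR) and without the filter on low counts (0.24, adjusted p = 0.0296). So 4 of 10 were called lower, against 7.64% of all genes tested, and 0 higher, against 7.08%. The median was -0.27 over the 10 genes and 0.04 over all genes. The summed hepatocyte markers were at 41610 to 45130 normalised CPM, below the 48650 to 49300 of unselected libraries, and the 4 erythroid markers at 2.75 to 4.546 against 215.5 to 231.3. Also lower were the sums for Kupffer cell or macrophage (90.42 to 100.3 against 119.0 to 122.7), sinusoidal endothelium (101.3 to 107.4 against 108.1 to 119.6), stellate cell (137.4 to 145.5 against 160.2 to 167.8) and enterocyte (18.29 to 26.6 against 27.65 to 32.51). The cholangiocyte sum was higher, at 8.231 to 10.77 against 5.627 to 6.912. The part of these in the members' change was not tested. Among protein-coding genes the bins differed little, from a median of -0.20 under 750 bases to 0.03 over 6000.

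Set directly against each other within batch 2, pull-down and digestion libraries had different levels for 9 of the 10 genes. The way of removing rRNA and the kit cannot be told apart in this pair. All 9 were lower by digestion than by pull-down, against 36.0% of all genes tested called lower, and 0 were called higher, against 34.7%. The differences ran from Apoa5, -0.33 (SE 0.044), to Apoc1, -1.46 (SE 0.045; adjusted p = 1.26e-22 by edgeR), or 2.76-fold. Apoa2 stood at -1.27 (SE 0.050) and Apoe at -1.02 (SE 0.107) on the log2 scale. Apob, at 0.14 (SE 0.085; adjusted p = 0.129 by edgeR), was not called, but it was called higher, at 0.41 (adjusted p = 2.79e-05 by edgeR), with totals over all genes except rRNA genes and Lars2. That scaling moved the median of all genes from -0.01 to 0.26, and with it Apoa5 was not called (-0.07, adjusted p = 0.218 by edgeR). The low-depth library ended no call in this comparison.

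PolyA libraries were called higher than pull-down libraries for the same 9 genes, against 36.4% of all genes tested, and lower for Apob, against 36.2%. Single libraries of these methods overlapped for Apoa2, Apoa4, Apoa5, Apoc1, Apoe and Apom, and did not for Apoa1, Apoc3, Apoh and Apob. The rises were small, from Apom at 0.17 (SE 0.041) to Apoa1 at 0.53 (SE 0.055), while the log2 fold change of Apob was -1.45 (SE 0.087; adjusted p = 1.8e-15 by edgeR). Against digestion, polyA libraries were again higher for 9 genes (38.4% of all genes tested) and lower for Apob (42.2%). Apoc1 differed most, by 1.83 (SE 0.045) or 3.56-fold, with no overlap, at 2475 to 2737 normalised CPM against 634 to 898. Apob was 3.02-fold lower (log2 fold change -1.59, SE 0.087). These comparisons share libraries with the ones above, and in them method, kit and batch cannot be told apart.

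The batch itself could be compared only in unselected libraries. No apolipoprotein gene was called between the 3 libraries of batch 2 and the 3 of batch 1, where 0% of the 15422 genes tested were called by edgeR, 848 had an unadjusted p under 0.05, and DESeq2 called 18. The log2 differences ran from -0.18 (Apoa4, SE 0.163) to 0.08 (Apob, SE 0.147).

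The makeup of the apolipoprotein counts, which does not depend on scaling between libraries, changed with the method. Apob made up 39.6% to 45.3% of the counts of the 10 genes in unselected liver libraries and 42.7% to 50.6% in digestion libraries. It made up 29.5% to 35.9% in 8 pull-down libraries, 15.5% in the low-depth one, and 9.05% to 13.7% in polyA libraries. Apoe was the largest member in every polyA library, at 29.8% to 37.9%, and Apob the largest in every unselected liver and digestion library. In the low-depth pull-down library Apoe held 45.0%, against 21.4% to 28.7% in the other 8. The plot of shares shows all 34 libraries.

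**Figure D3:**
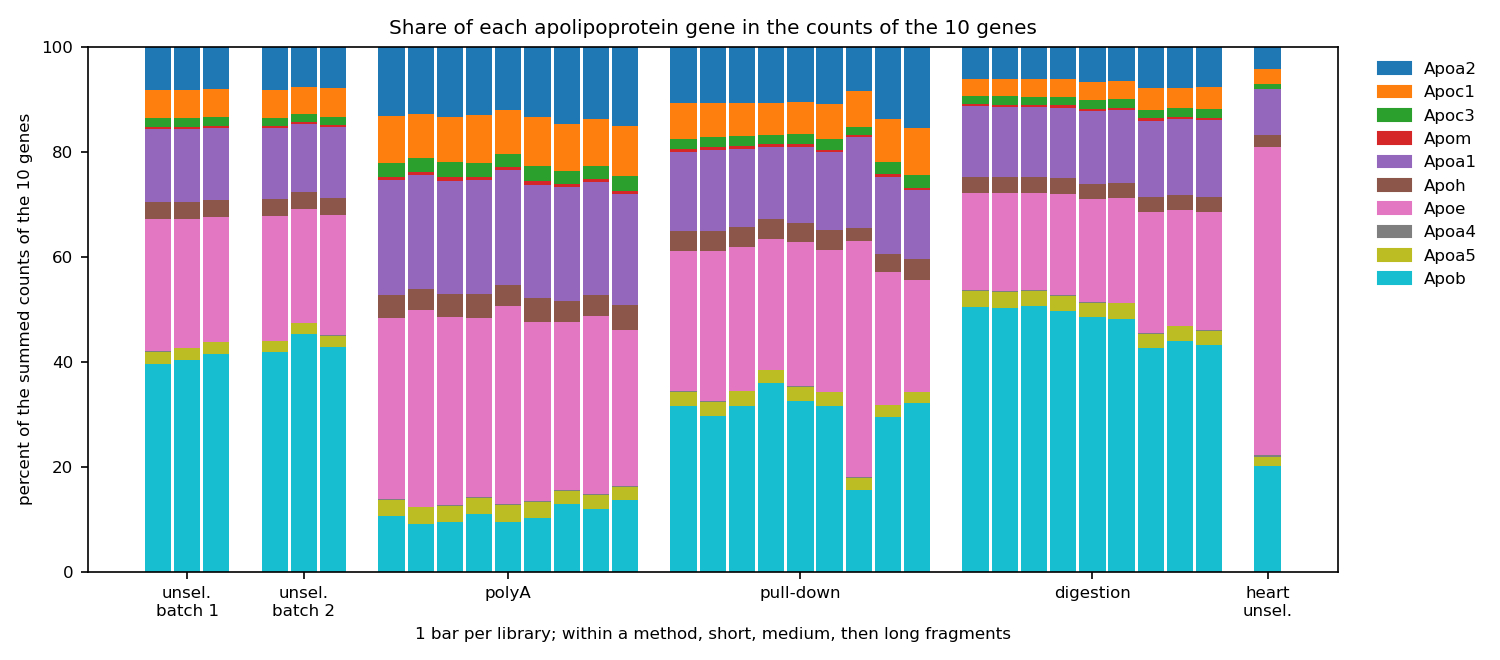
Percent of the summed counts of the 10 genes held by each gene (vertical axis), 1 bar per library, grouped by preparation and ordered within a method by fragment length. Apob holds 9.05% to 13.7% in polyA libraries and at least 39.6% in unselected liver and digestion libraries; 1 pull-down bar, the low-depth library, has the largest Apoe share of the liver libraries, 45.0%.

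Per length, the order of the genes differed between preparations. In normalised CPM per kilobase of annotated transcript, Apoe (4253, batch 1 unselected mean), Apoa2 (3828), Apoa1 (3252) and Apoc1 (2452) were the highest. Apob (708), Apoh (661), Apoc3 (580), Apoa5 (218), Apom (93.0) and Apoa4 (12.6) followed, and no 2 neighbours in that order overlapped across the 3 libraries. In batch 2 the order was the same, but Apoe and Apoa2 overlapped. In polyA libraries Apob dropped from the 5th place to the 8th, at 229 per kilobase (193 to 282), below Apoa5 at 339. In pull-down libraries it was 7th, at 625, where it overlapped Apoc3, and in digestion libraries 5th, at 690. In polyA and pull-down libraries Apoa2 came ahead of Apoe, but the 2 overlapped. Apoc3 came ahead of Apoh in polyA libraries (1119 against 1048) and Apoa1 ahead of Apoa2 in digestion libraries (2716 against 2647), and these pairs overlapped too. Some places depended on the length used: with all annotated exons of a gene merged, Apoe came 2nd or 3rd in every group, and Apob was 6th in pull-down libraries.

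Within polyA libraries, members went in opposite directions with fragment length. Apob rose from 2685 to 2988 normalised CPM with short fragments to 3660 to 3931 with long ones, a log2 fold change of 0.43 (SE 0.025; adjusted p = 2.67e-07 by edgeR), with no overlap between the 3 and 3 libraries. Apoa2 rose by 0.17 (SE 0.021), Apoc1 by 0.10 (SE 0.018) and Apoh by 0.07 (SE 0.024). Apoa4 fell from 37.4 to 42.5 normalised CPM to 32.9 to 36.5, by 0.27 (SE 0.041). Apoa5 fell by 0.26 (SE 0.031), Apoe by 0.15 (SE 0.038) and Apom by 0.10 (SE 0.029). Apoa1, at 0.01, and Apoc3, at -0.05, were not called. The Apoh call was lost without the medium ramp (adjusted p = 0.251 by edgeR) or the fast ramp (0.196), and the Apom call without the medium ramp (0.129). So 4 were called higher, against 27.4% of the 14629 genes tested, and 4 lower, against 27.7%, which is near the background. With totals over all genes except rRNA genes and Lars2, Apoc1 (0.04) and Apoh (0.01) were not called and Apoc3 was called lower (-0.10, adjusted p = 0.00114 by edgeR). Apoc3 was also called lower without a filter (-0.06, adjusted p = 0.0455 by edgeR). Apoa1 was called higher without the fast ramp (0.04, adjusted p = 0.0476 by edgeR).

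In digestion libraries 8 members were higher with long fragments, against 8.80% of the 15199 genes tested, and Apob alone of the 10 was lower, against 9.15%. Apoa2 went from 1180, 1181 and 1221 normalised CPM with short fragments to 1604, 1633 and 1648 with long ones, a log2 fold change of 0.45 (SE 0.026; adjusted p = 6.89e-09 by edgeR). Apoc1 rose by 0.41 (SE 0.036), Apoe by 0.38 (SE 0.022), Apoa1 by 0.22 (SE 0.019), Apoa4 by 0.19 (SE 0.044), Apom by 0.17 (SE 0.023), Apoc3 by 0.14 (SE 0.023) and Apoh by 0.07 (SE 0.017). Apob fell from 9817 to 10050 to 9108 to 9171, by 0.12 (SE 0.010; adjusted p = 6.53e-07 by edgeR). Apoa5 stood at -0.04 (SE 0.018), without a call. The Apoa4 call was lost with DESeq2 (adjusted p = 0.161) and without the slow ramp (adjusted p = 0.0582 by edgeR), and the Apoh call without the fast ramp (adjusted p = 0.077 by edgeR). For Apoe medium fragments lay between the others: it was at 3631 to 3694 normalised CPM with short, 3823 to 4021 with medium and 4565 to 4938 with long fragments. In polyA libraries, by contrast, Apob with medium fragments, at 2876 to 3115, overlapped the short ones. Among protein-coding genes the median in digestion libraries fell from 0.19 under 750 bases to -0.03 over 6000.

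In pull-down libraries the result rested on the low-depth library, which is 1 of the 3 with long fragments. With it, only Apoc1 was called, higher by 0.42 (SE 0.090; adjusted p = 0.034 by edgeR), from 1780 to 1929 normalised CPM with short fragments to 2413 to 2557. That is 1 of 10 higher, against 4.42% of the 14426 genes tested, and 0 lower, against 1.66%. DESeq2, with every library, also called Apoc3 higher (0.26, adjusted p = 0.0393). Without it, Apoa2 (0.49), Apoc1 (0.44) and Apoc3 (0.34) were called higher and Apoa4 (-0.32), Apoa5 (-0.29) and Apoe (-0.23) lower, 3 of 10 each way, against 19.2% and 18.2% of the 14432 genes then tested. The Apoc1 call was lost without the medium ramp (0.42, adjusted p = 0.964 by edgeR) and without the fast ramp (0.37, adjusted p = 0.581). The value of Apoe turned from 0.25 (SE 0.270) to -0.23, that of Apob from -0.18 (SE 0.175) to 0.07, that of Apoa1 from 0.12 to -0.11 and that of Apoh from -0.09 to 0.03. Of these, Apoe alone was called, and only without the library. The plot of long against short fragments gives both sets of values.

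**Figure D4:**
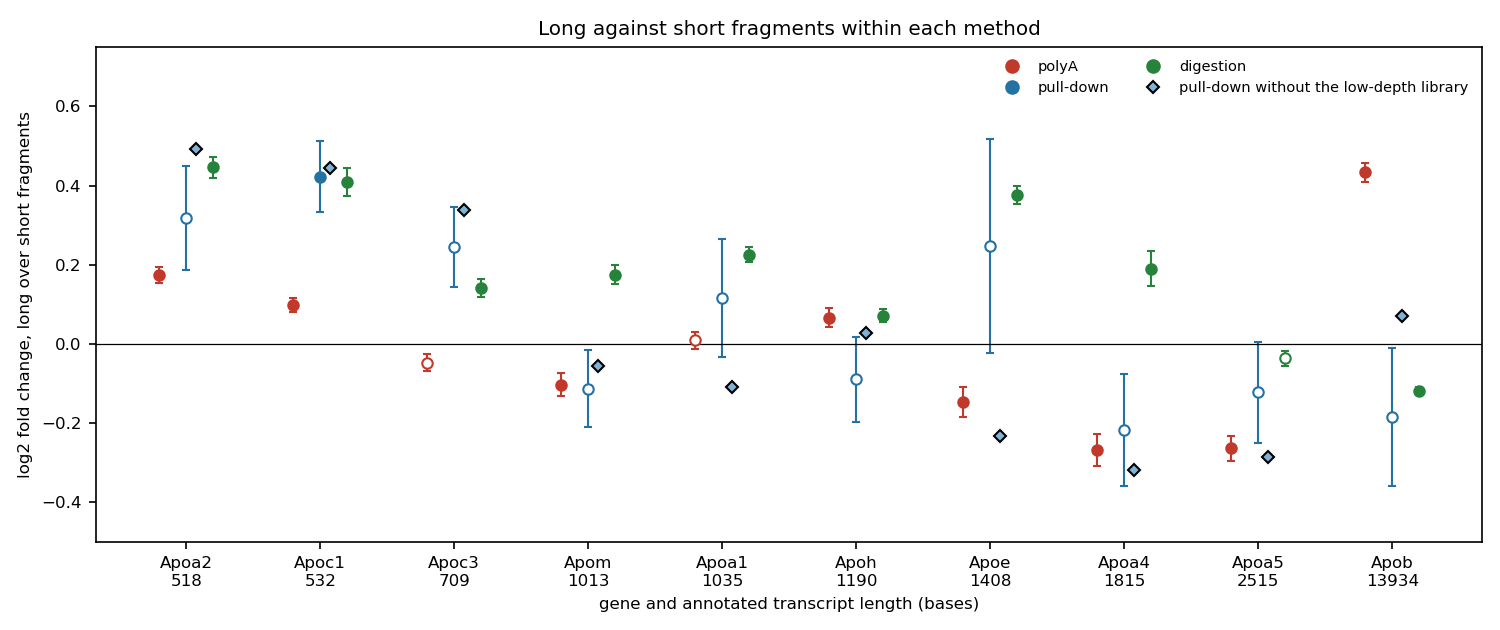
Log2 fold change of long over short fragments (vertical axis) for the 10 genes ordered by annotated transcript length in bases, per method, with SE bars and filled circles where the adjusted p was under 0.05; diamonds give pull-down values without the low-depth library. Apob is at 0.43 in polyA and -0.12 in digestion libraries, while Apoe and Apoa4 are below 0 in polyA and above 0 in digestion libraries.

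Tests of the difference between methods in this length effect called several members. Between polyA and digestion, the effect on Apob differed by 0.52 (SE 0.165; adjusted p = 0.0184 by edgeR), higher in polyA. It was lower in polyA for Apoa4 (-0.48, SE 0.106), Apoc1 (-0.34, SE 0.078), Apom (-0.31, SE 0.070) and Apoc3 (-0.22, SE 0.082; adjusted p = 0.0454 by edgeR). The Apoc3 call was lost with RLE scale factors (-0.16, adjusted p = 0.096 by edgeR). That is 5 of 10, against 32.6% of the 15442 genes tested. Without the low-depth library, an alternative chosen for this comparison after seeing the data, 8 were lower in polyA, now with Apoe (-0.54), Apoa2 (-0.29), Apoa5 (-0.25) and Apoa1 (-0.24), and Apob was still higher. Of all genes 19.2% were then lower in polyA and 17.7% higher. With every library, Apoa2 was also called with totals over all genes except rRNA genes and Lars2 (-0.33, adjusted p = 0.0216 by edgeR) and without a filter (-0.33, adjusted p = 0.0401), and Apoa5 without a filter (-0.28, adjusted p = 0.0445).

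Between polyA and pull-down, Apoc1 (-0.35, SE 0.078) and Apoc3 (-0.34, SE 0.082) were called, 2 of 10 against 3.00%. Apob differed by 0.57 (SE 0.165; adjusted p = 0.0616 by edgeR) with every library and by 0.38 (adjusted p = 0.00012 by edgeR) without the low-depth one. With every library it was also called with RLE factors (0.61, adjusted p = 0.0221 by edgeR), with totals over all genes except rRNA genes and Lars2 (0.56, adjusted p = 0.0413), without a filter (0.57, adjusted p = 0.0314) and with DESeq2 (0.61, adjusted p = 0.00281). Between digestion and pull-down, Apoa4 (0.45, SE 0.116) and Apom (0.25, SE 0.073) were called higher in digestion, 2 of 10 against 14.4%, which is near the background. Without the low-depth library 5 were higher there, against 15.5% of the 15743 genes then tested, among them Apoe at 0.62 (adjusted p = 2.27e-05 by edgeR) in place of 0.07. The 2 then called lower, against 10.5%, were Apoc3 (-0.17, adjusted p = 0.00388 by edgeR) and Apob (-0.15, adjusted p = 0.0457).

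Between the fast and the slow PCR ramp no member was called, and the medium ramp was not tested against either. Fast against slow ramps over the 27 selected libraries gave log2 values from -0.15 (Apoe, SE 0.115) to 0.11 (Apoc3, SE 0.046), with every adjusted p at 1 by edgeR. Of the 15230 genes tested 0.0328% were called, 5 genes by edgeR and 8 by DESeq2.

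Other genes of lipoprotein biology gave mixed counts. Of 21 further apolipoproteins and proteins carried on lipoproteins, 18 were tested, and polyA libraries were higher than unselected ones for 16 of them and lower for 0, against 25.6% and 24.8% of all genes tested, with a median of 0.59. Saa1 and Saa2, acute-phase apolipoproteins of high density lipoprotein and near-identical copies whose counts are uncertain, rose by 1.17 (SE 0.109) and 1.01 (SE 0.206). Pull-down against unselected libraries gave 8 higher (17.5% of all genes) and 2 lower (15.3%). Digestion against unselected libraries gave 1 higher (7.08%) and 4 lower (7.64%). Digestion libraries were lower than pull-down libraries for 15 of the 18, against 36.0% of all genes tested, and higher for 2, against 34.7%. Among the 15 was Apoc2, the activator of lipoprotein lipase, at -0.93 (SE 0.184). With long fragments Apoc2 fell by 1.00 (SE 0.103) in digestion libraries, where Apoc1 rose by 0.41. The difference between these 2 genes was not tested.

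Of 39 genes of lipoprotein assembly, remodelling, receptors and secretion, 37 were tested, and in polyA against unselected libraries 20 were higher (25.6% of all genes), 6 lower (24.8%) and 11 not called. Abca1, the transporter that loads cholesterol onto Apoa1, is annotated at 10262 bases and fell by 1.18 (SE 0.053), the largest fall in the list, and Abcg1 fell by 1.07 (SE 0.123). A1cf, a cofactor of the editing of Apob messenger RNA, fell by 1.27 (SE 0.074) in pull-down libraries, from 161 normalised CPM unselected to 66.0, and stood at 170 in digestion libraries. In pull-down against unselected libraries 19 of the 37 were higher (17.5% of all genes) and 6 lower (15.3%, so 6 of 37 is near the background). In digestion against unselected libraries 5 were higher (7.08%) and 6 lower (7.64%).

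The genes whose log2 level followed Apob most closely over the 27 selected libraries were Zfp644 (Pearson r = 0.996), Dmxl1 (0.995), Pikfyve (0.994), Dop1a (0.993) and Zkscan1 (0.993), annotated at 5785 to 12247 bases. Those most like Apoa2 were Rpl36al (0.993), Ndufa5 (0.992), Rps25 (0.991), Rps3 (0.991) and Rps27a (0.990), annotated at 791 to 1908 bases. These are descriptions over libraries that share 1 RNA sample and differ by method. Among the members, Apob correlated negatively with the 9 others, from -0.64 with Apoa2 to -0.88 with Apoa1, and the 9 correlated positively with each other, from 0.78 to 0.99.

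In heart, all 10 genes were far lower than in liver. With 1 heart library there is no replicate check and no test, and the values are from unselected libraries of batch 1 on a scale of their own. Apob was at 2373, 2433 and 2503 normalised CPM in liver and at 7.94 in heart (233 counts, exact 95% Poisson interval 6.95 to 9.03, counting error only), 307-fold lower. The fold was 300 for Apoa2, 287 for Apoc1, 248 for Apoc3, 239 for Apoa1, 228 for Apoh and 209 for Apoa5, with 12 to 102 heart counts behind each. Apoe, which macrophages and other cells outside the liver also make, was the highest in heart, at 23.2 (680 counts, 21.46 to 24.98) against 1515, 1487 and 1435 in liver, 63.8-fold lower. It held 58.8% of the heart counts of the 10 genes. Apoa4 had 5 heart counts, 33.2-fold lower, and Apom had 0, at least 228-fold lower against a floor of 3 counts in that library.

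All 10 were at least 2-fold lower and outside the 3 liver libraries, against 18.3% of the 13065 genes compared, and none was higher, against 19.9%. In such bulk RNA, fewer cells of a type and less RNA per cell cannot be told apart. All 6 hepatocyte markers moved with the members: Alb was at 32.4 normalised CPM in heart and 9269 to 9443 in liver, and the folds of the 6 were 274 to 336. Their summed level was 42.1 in heart. The folds of Apob, Apoa2 and Apoc1 (307, 300 and 287) lay in the range of the 6 markers, and those of the other members with heart counts were smaller. Whether liver RNA or reads had been carried into the 1 heart library was not tested. The 7 cardiomyocyte markers were at or near 0 in every liver library, at most 0.419, with Myh6 at 4020 in heart. Of 6 macrophage markers, C1qa (3.65 in heart, 3.15 to 4.80 in liver), C1qb (4.26 against 2.80 to 3.40) and Adgre1 (1.98 against 3.04 to 3.36) were of similar size in both tissues, Clec4f and Cd5l had 3 heart counts each and Marco had 0. The part of either cell type in these values was not tested.

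**Figure D5:**
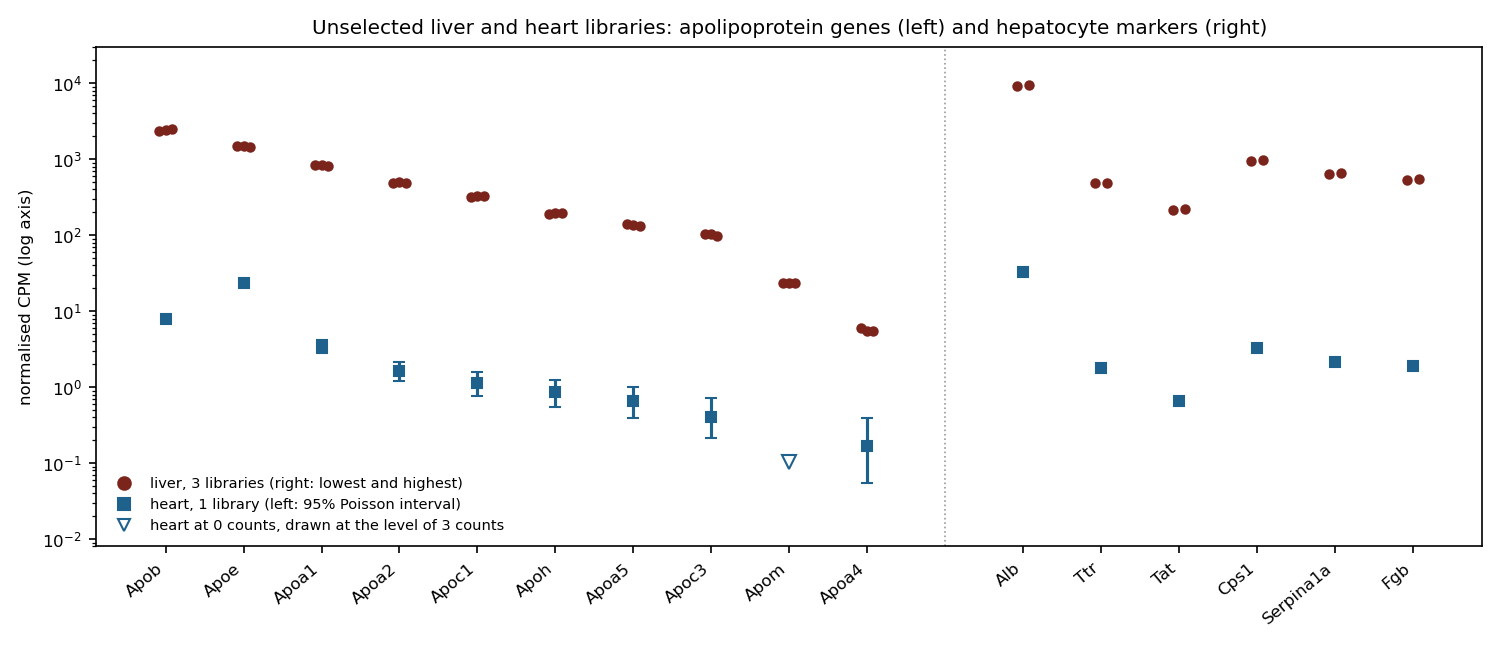
Normalised CPM (log axis) of the 10 apolipoprotein genes, left, and 6 hepatocyte markers, right, in 3 unselected liver libraries (circles; for the markers the lowest and highest) and 1 heart library (squares; for the genes with the exact 95% Poisson interval). Apoe is the highest of the 10 in heart, at 23.2, and Apom, with 0 counts, is drawn at the level of 3 counts.

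Since liver and heart differ in these genes, the sequence just before their starts was searched in the RefSeq promoter table (GRCm38.p6, 250 bases before and 50 after each start). It held 12 entries for 8 of the 10 genes and none for Apoc1 and Apoc3. On either strand, the TATA box letters TATAAA were found in 5 of the 12 entries (1 each of Apoa2, Apob and Apoe, and 2 overlapping windows of Apoa5 that hold the same match), against 13.6% of all 32851 entries. The nuclear receptor letters AGGTCA were found in Apoa2 and Apoh (16.3% of all), the HNF1 core GTTAAT in Apoe (7.10%) and CCAAT in both entries of Apoa2 (37.4%). The HNF4A letters CAAAGTCCA (0.475% of all) and the GC box GGGCGG (35.7%) were found in none of the 12. Positions depend on the start used: the Apoa5 letters lie at -31 from 1 RefSeq start and at -56 from the other. The RefSeq start of Apob lies downstream of its GENCODE start. For the 2 genes with TATAAA within 60 bases of a start, the 100 bases before that start are shown 5′ to 3′ on the plus strand, from chr9:46268508-46268607 and chr12:7977577-7977676, with those letters in capitals at -31 for Apoa5 and -60 for Apob.
Apoa5: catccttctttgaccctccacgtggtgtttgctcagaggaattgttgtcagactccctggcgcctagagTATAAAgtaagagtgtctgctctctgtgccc
Apob: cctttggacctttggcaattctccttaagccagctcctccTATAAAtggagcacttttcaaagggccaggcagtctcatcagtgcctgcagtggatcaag
A match is a description of letters, and no expression value here bears on any single base of these windows.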

How the data were processed

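The authors deposited expected counts made with Salmon, per the submitters' processing notes, 1 value per gene in each of 34 libraries. These notes name Salmon 1.9.0, UMI-tools 1.1.1, R 4.4.0 and the build GRCm38. The transcript set and any removal of duplicates by molecular identifier are not given in the sources used here, so precision may be overstated where duplicates were counted. Expected counts were rounded to whole numbers. Groups and batches came from the library titles. Identifiers were matched to GENCODE M21 (50896 of 51368), whose lengths may not be those the authors used. Reads that fit several near-identical genes are divided by the quantifier.

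Tests used edgeR 4.0.16 (R 4.3.3, limma 3.58.1): quasi-likelihood F-test, TMM, filterByExpr, Benjamini-Hochberg over all genes tested, threshold 0.05. Method and batch comparisons used the 33 liver libraries with ramp and fragment length as covariates, effects within a method its 9 libraries, and ramp and differences between methods the 27 selected ones. The SE is the size of the log2 fold change divided by the square root of F. The heart comparison has no test; its log2 ratio uses a pseudocount of 0.5, and genes needed 10 counts in 1 of the 4 libraries. The fitting was tested on simulated data. Alternatives were other scalings, no filter, DESeq2 1.42.0 and leaving out libraries.

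Named genes were all 10 members, the 2 called genes of each list with the largest absolute log2 fold change in a comparison, of which only some are printed, and the 5 genes with the highest r with Apob and with Apoa2. The members, lists and tests were chosen with earlier results of these data known. Replicate numbers, which the titles give only to unselected libraries, did not pair batch 1 with batch 2.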

Additional observations from a re-analysis of the deposited data

Results flagged for a closer look

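In 4 of the 10 genes, 1 pull-down library, with slow ramp and long fragments and 1.13 M counts, lay far from the other 8. It held Apoe at 15710 normalised CPM (others 6171 to 8272), Apoa1 at 6071 (3782 to 4490), Apob at 5413 (8549 to 10100) and Apoh at 852.9 (1033 to 1122). Dixon's ratio of the gap to the whole range was 0.78, 0.691, 0.669 and 0.669, above the 95% critical value for 9 samples. Chance flags about 1 in 20 groups, and all 4 flags fall on this library. The part of its depth in these values was not tested.

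The effect of long against short fragments differed between methods, by edgeR's test of the difference, in 9 cases. Of all genes tested, 32.6% were called for polyA minus digestion, 3.00% for polyA minus pull-down and 14.4% for digestion minus pull-down. PolyA minus digestion was 0.523 for Apob, -0.484 for Apoa4, -0.337 for Apoc1, -0.306 for Apom and -0.218 for Apoc3 on the log2 scale, the last not called with RLE scale factors. PolyA minus pull-down was -0.353 for Apoc1 and -0.337 for Apoc3. Digestion minus pull-down was 0.452 for Apoa4 and 0.253 for Apom. PolyA libraries were in another batch than the rest, so in the first 7 of these method, kit and batch cannot be told apart. In digestion minus pull-down, method and kit cannot be told apart.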

How the results depend on the processing

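In the 6 comparisons of methods, no gene changed direction in 390 recomputed values, of which 380 kept their call. In the heart comparison all 10 genes stayed lower, but the log2 ratio ran from -4.453 to -3.157 for Apoa4 and from -8.205 to -5.568 for Apom. With totals that leave out rRNA genes and Lars2, pull-down against unselected had 1 gene lower in place of 0, digestion against unselected and against pull-down 1 higher each in place of 0, long fragments in polyA 2 higher in place of 4, and polyA minus pull-down 1 higher in place of 0. Without a filter, digestion against unselected and polyA minus pull-down each had 1 higher in place of 0, as had the latter with RLE factors and DESeq2. DESeq2 gave 2 higher in place of 1 for long fragments in pull-down and 1 lower in place of 0 for digestion minus pull-down.

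Without the low-depth library, digestion against unselected and polyA minus pull-down had 1 higher in place of 0, long fragments in pull-down 3 higher in place of 1 and 3 lower in place of 0, polyA minus digestion 8 lower in place of 4, and digestion minus pull-down 5 higher in place of 2 and 2 lower in place of 0. For polyA minus digestion and polyA against digestion this alternative was chosen after seeing the data. Leaving out 1 ramp at a time, long fragments in pull-down had 0 to 3 higher and 0 to 3 lower.

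Signs turned only in the following, among the alternatives run. Without the low-depth library, long against short in pull-down was -0.109 for Apoa1, 0.07 for Apob, -0.232 for Apoe and 0.028 for Apoh. PolyA minus pull-down was then 0.115 for Apoa1, 0.049 for Apoa4, 0.018 for Apoa5 and 0.078 for Apoe, digestion minus pull-down -0.016 for Apoa2, -0.148 for Apob and 0.004 for Apoc1, and fast against slow 0.024 for Apoa5 and -0.051 for Apob. Leaving out 1 ramp, long against short in pull-down ran from -0.092 to 0.247 for Apoa1, -0.316 to 0.031 for Apoa4, -0.315 to 0.053 for Apob, -0.219 to 0.514 for Apoe and -0.175 to 0.031 for Apoh, and in polyA from -0.026 to 0.044 for Apoa1. Apoa1 in polyA was also -0.046 with totals without rRNA and -0.002 without a filter. PolyA minus pull-down for Apoa4 was 0.026 with RLE and 0.0 with DESeq2, polyA minus digestion for Apoh 0.02 with either, digestion minus pull-down for Apoc1 0.019 without a filter, and fast against slow for Apoa4 -0.002 with DESeq2. Batch 2 against batch 1 for Apoh (-0.01) was 0.006 with RLE and DESeq2, 0.008 with totals without rRNA, 0.007 with the replicate block and -0.024 to 0.007 leaving out 1 replicate. Where no library was left out, the cause was not tested.

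With the replicate number as a block, 82 genes and no member were called between batches in place of 0, but same-numbered libraries did not deviate together (r = -0.001, -0.033 and -0.054 over 15422 genes), so the numbers do not pair them.

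Counts over all genes moved by over 1.5 times in these cases. For long fragments in pull-down 877 genes became 5398 without the low-depth library, 26 to 4597 leaving out 1 ramp and 1339 with DESeq2, and in digestion 2728 became 963 with DESeq2 and 1584 and 1746 without the fast or slow ramp. PolyA minus pull-down, 463, became 956 with RLE, 1331 without the library and 1558 with DESeq2, and digestion minus pull-down, 2229, became 4084 without it. Digestion against unselected, 2271, became 1303 without batch 2 replicate 2, and between batches 0 became 2 without a replicate. DESeq2 called 8 in place of 5 for ramp. The share of called genes that were higher, with totals without rRNA, was 37.6% in place of 50.8% for polyA, 26.4% in place of 53.3% for pull-down and 71.9% in place of 48.1% for digestion against unselected, 73.7% in place of 49.1% for digestion against pull-down and 31.5% in place of 47.6% for polyA against digestion. With RLE it was 42.3% for pull-down and 32.8% for digestion against unselected, 79.9% in place of 46.0% for polyA minus pull-down and 61.4% in place of 48.0% for polyA minus digestion, and with DESeq2 41.1%, 34.4%, 82.5% and 61.3%. It was also 54.3% in place of 43.9% for digestion minus pull-down and 56.5% for polyA minus pull-down with totals without rRNA, and 58.8% in place of 72.8% for long fragments in pull-down with DESeq2. Counts were low for Apoa4, with 91 to 118 in unselected liver libraries and 5 in heart, and for Apom in heart, with 0.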
